A study of Rattus norvegicus with 8 samples.

Results

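Ribosome production begins in the nucleolus, where RNA polymerase I copies the ribosomal DNA into a long pre-rRNA. Small nucleolar ribonucleoproteins (snoRNPs) modify that precursor, and a succession of assembly factors cuts and folds it into the small and the large ribosomal subunit. The pathway takes up much of the energy a growing cell spends, and its genes are classical targets of the transcription factor Myc. This account follows 58 genes of that pathway in rat liver. They were chosen by name with earlier results of these data known, so the set may not be independent of the values below. By role they were sorted into RNA polymerase I transcription (11 genes), small subunit assembly (19), large subunit assembly (17), snoRNP proteins (8) and general nucleolar proteins (3). Of the 58 genes, 50 had a probe set with that single gene symbol, out of 14511 genes in all. Rrn3 shared its probe set with another gene, and Rrn3, Taf1b, Rrp12, Nol11, Utp20, Nop2, Rrp1b and Pes1 were not analysed here.

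The data came from 8 Affymetrix whole-transcript arrays, 1 per liver sample, from male Wistar rats aged 6 to 10 weeks. Krebs-Henseleit buffer, which is a salt solution held near blood pH by bicarbonate, ran through the livers. It was normoosmotic (305 mosm/L) for 4 samples and hypoosmotic (225 mosm/L) for 4, and dilute buffer of this kind swells liver cells. All 8 samples carry the 180 min time point, and all were isolated livers perfused outside the animal, so no unperfused liver is among them. Whether the 4 samples of a group were separate animals is not in the labels, so the p-values rest on a spread between samples that may be technical.

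The values are log2 intensities as deposited, and their median over all probe sets was between 3.92 and 4.05 on each array. Precision is limited by having 4 arrays per group. All 8 measured hepatocyte markers were bright, with a mean level of 12.18 to 12.32 in normoosmotic and 12.20 to 12.28 in hypoosmotic samples, and 0 of them passed the test. Of 4 measured markers of sinusoidal endothelium 1, Kdr, a receptor for vascular growth factor, rose (log2 change 0.66, SE 0.15, limma adjusted p = 0.0280; chosen after its value was seen), and the mean level of the 4 was 7.13 to 7.32 in normoosmotic and 7.37 to 7.94 in hypoosmotic samples. None of the 7 Kupffer cell, 7 stellate cell, 3 cholangiocyte, 5 leukocyte and 2 red cell markers measured passed, and 4 of the 5 leukocyte, 1 of the 3 cholangiocyte and 1 of the 2 red cell markers lay near background. Their part in the results below was not tested, and in RNA of whole tissue fewer cells of a type and less RNA per cell cannot be told apart. Near background means below a log2 level of 3.37, the 95th percentile of 53 odorant receptor genes. None of the 50 ribosome biogenesis genes had a mean below it, and no filter on low values was applied.

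Transcripts of the ribosome assembly line were lower in hypoosmotic liver. Of the 50 measured genes 21 fell and 0 rose, or 42.0% falls, where 4.62% of all genes tested fell and 2.45% rose, or 7.07% in either direction (limma, Benjamini-Hochberg adjusted p under 0.05 over all genes). A change is the log2 mean of the hypoosmotic group minus that of the normoosmotic group. The median change of the 50 genes was -0.51, against 0.02 for all genes, and 46 of the 50 changes were negative, against 46.2% of all genes. The number of falls was 10 without normoosmotic replicate 3 and 13 without hypoosmotic replicate 2, where 2.28% and 2.69% of all genes fell. The 21 falls ranged from 1.43-fold to 2.33-fold, with a median of 1.67-fold. For 29 of the 50 genes all 4 hypoosmotic values lay below all 4 normoosmotic ones, which was true of 8.21% of all genes. The opposite order was found for 0 of the 50 and for 5.33% of all genes. Centring each array on its median gave 23 falls and 0 rises among the 50. Over all genes the split of 670 lower and 356 higher became 835 lower and 271 higher, a share of 5.75% lower. The 50 genes were brighter than most, with a median level of 6.69 against 4.59 for all genes. With the dimmest 30% of genes left out, 23 of the 50 fell, against 7.32% of the genes kept.

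**Figure D1:**
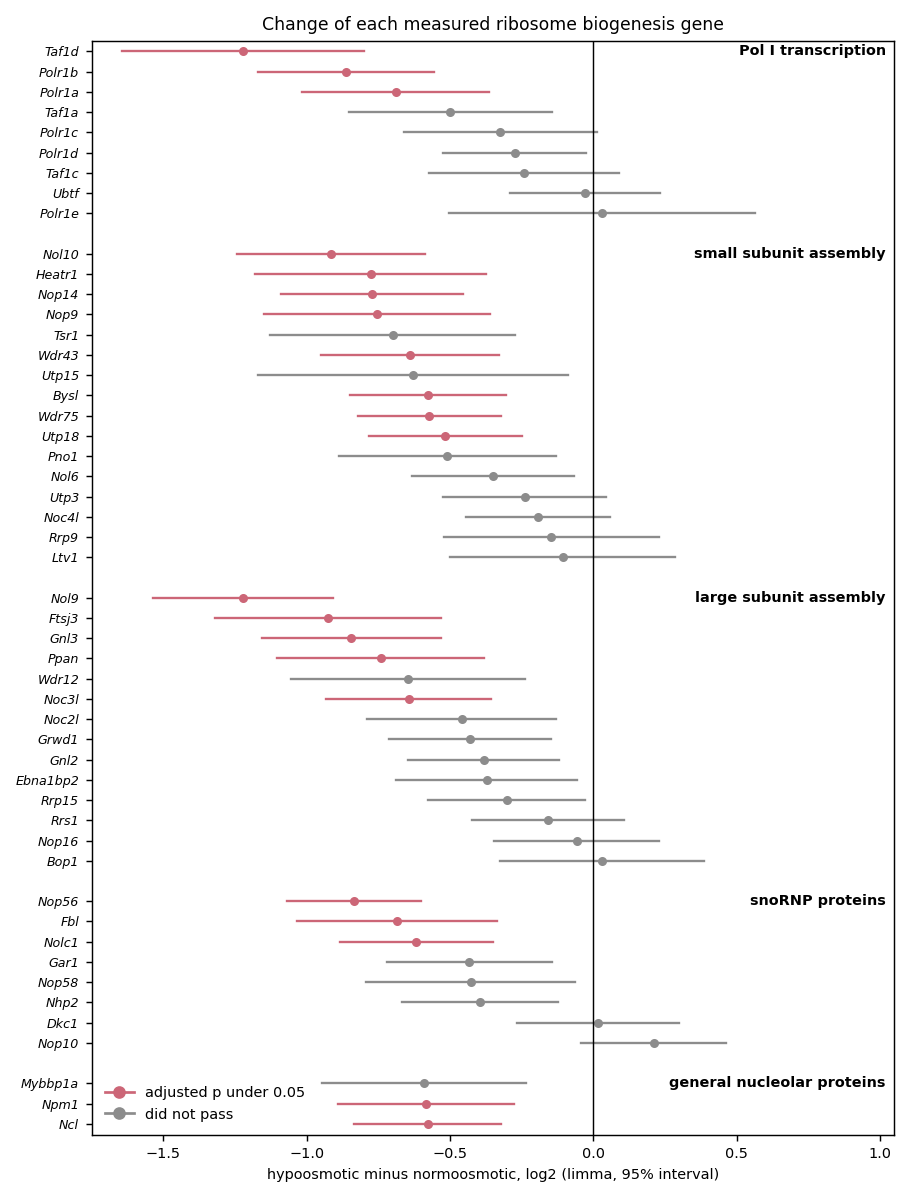
Change of each of the 50 measured genes, hypoosmotic minus normoosmotic on the log2 scale (x axis), as a point with its 95% interval from limma, grouped by role. The 21 genes that passed are in red, all of them left of 0, and only Nop10, Dkc1, Polr1e and Bop1 had a change above 0.

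The 29 genes that did not pass had changes from -0.70 to 0.21. Of these, 16 had an unadjusted p under 0.05, and 9 had an adjusted p under 0.1, with the lowest at 0.0519. A gene that missed the threshold is therefore not shown to be equal in both groups.

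One array weighed on the picture. Hypoosmotic replicate 3 had the lowest value of its group for 41 of the 50 genes, while over all genes it was lowest for 28.6%. Its median over all probe sets, 4.05, was the highest of the 8 arrays. Array weights estimated over all genes gave it the lowest weight, 0.53, with the next lowest at 0.76. With these weights 23 of the 50 genes fell, against 5.04% of all genes. Measured as the median deviation from each gene's mean over 8 arrays, the 50 genes lay at -0.54 on that array. They lay at -0.09, -0.27 and -0.05 on hypoosmotic replicates 1, 2 and 4, and between 0.14 and 0.35 on the 4 normoosmotic arrays. All genes together stayed between -0.01 and 0.01 on every array. The groups therefore did not overlap in this median with or without replicate 3. Without it 19 genes fell and 0 rose, 18 of them among the 21, and the median change was -0.42. In that fit 3.79% of all genes fell. Leaving out normoosmotic replicate 3 or hypoosmotic replicate 2 lowered the number of falls further, to 10 and 13. It was also lower, at 14, 16 and 17, without normoosmotic replicates 4, 2 and 1. In those 3 fits 2.76%, 2.85% and 2.92% of all genes fell. The spread was also wider with hypoosmotic buffer, with a median SD of 0.27 against 0.14 in normoosmotic samples, and the hypoosmotic SD was the larger for 44 of the 50 genes (88.0%, against 59.6% of all genes).

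**Figure D2:**
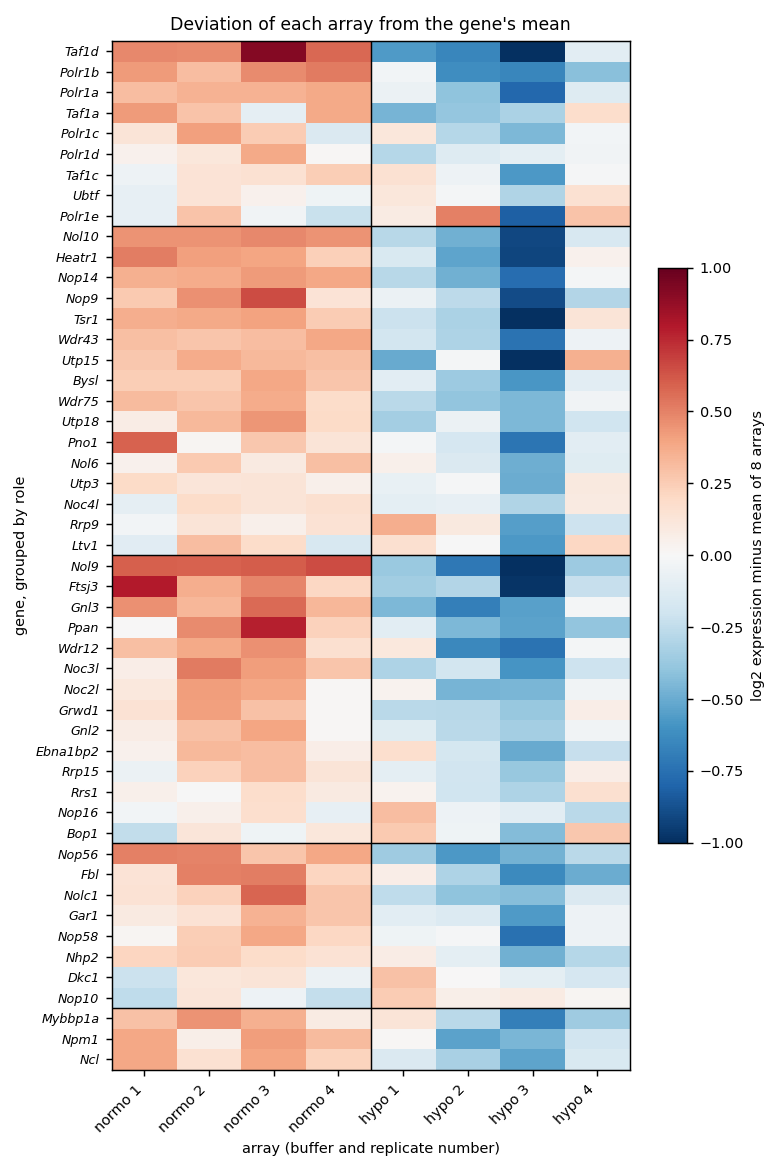
Log2 expression of the 50 genes on each of the 8 arrays (columns) minus the gene's mean over all arrays, in colour from blue (below) to red (above), with colours capped at 1 either way and lines between the role groups. The 4 normoosmotic columns are mostly red, the 4 hypoosmotic columns mostly blue, and hypoosmotic replicate 3 is the darkest, with the lowest value of its group for 41 genes.

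Promoters were examined because 46 of the 50 genes had a negative change and because many are textbook Myc targets. RefSeq promoter windows on the GRCr8 assembly, from 250 bases before to 50 bases after a start site, were found for 45 of the 50 genes, and both strands were searched. The E-box CACGTG, the sequence that Myc and its partner Max bind, was in 14 of the 45 windows (31.1%). It was in 6.42% of all 33469 windows and in 7.76% of the 12545 windows of tested genes. The letters TCTCGCG were in 9 of the 45 windows (20%), against 2.39% of all windows and 4.06% of those of tested genes. The ETS-type letters CGGAAGT were in 19 (42.2%), against 6.32% and 9.84%. Of 20 genes that fell with a window, 6 held the E-box, 4 TCTCGCG and 5 CGGAAGT, and of the 25 that did not pass, 8, 5 and 14 did. Base composition was not matched, and a match describes letters only. Among the falls, the E-box was in the windows of Gnl3, Utp18, Fbl, Noc3l, Bysl and Wdr75, and TCTCGCG in those of Nol9, Taf1d, Nop14 and Npm1.

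The 4 windows below, 5′ to 3′ along the gene, show one E-box, a pair of E-boxes, and TCTCGCG on both strands in overlap (Nol9) and apart (Nop14). Capitals mark CACGTG and TCTCGCG or its reverse complement.
Gnl3 promoter (GRCr8, chr16:6219733-6220032, minus strand): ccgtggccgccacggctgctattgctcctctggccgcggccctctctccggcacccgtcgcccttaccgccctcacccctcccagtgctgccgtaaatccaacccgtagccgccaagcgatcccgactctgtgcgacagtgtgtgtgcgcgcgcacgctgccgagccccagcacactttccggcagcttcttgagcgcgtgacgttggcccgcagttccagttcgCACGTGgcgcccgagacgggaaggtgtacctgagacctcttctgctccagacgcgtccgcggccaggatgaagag
Utp18 promoter (GRCr8, chr10:79335708-79336007, minus strand): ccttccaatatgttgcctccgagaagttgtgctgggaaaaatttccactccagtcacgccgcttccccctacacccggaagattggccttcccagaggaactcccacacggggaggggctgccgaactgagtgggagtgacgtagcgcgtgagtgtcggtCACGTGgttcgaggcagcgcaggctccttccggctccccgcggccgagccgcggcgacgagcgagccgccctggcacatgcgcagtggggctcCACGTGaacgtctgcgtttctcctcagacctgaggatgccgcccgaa
Nol9 promoter (GRCr8, chr5:167829019-167829318, plus strand): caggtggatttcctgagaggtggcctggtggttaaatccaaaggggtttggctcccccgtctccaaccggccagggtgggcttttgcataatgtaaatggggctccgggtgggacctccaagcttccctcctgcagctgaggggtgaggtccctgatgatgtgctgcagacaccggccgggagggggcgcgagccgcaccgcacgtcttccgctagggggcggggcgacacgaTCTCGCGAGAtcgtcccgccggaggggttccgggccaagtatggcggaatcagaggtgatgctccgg
Nop14 promoter (GRCr8, chr14:80305662-80305961, plus strand): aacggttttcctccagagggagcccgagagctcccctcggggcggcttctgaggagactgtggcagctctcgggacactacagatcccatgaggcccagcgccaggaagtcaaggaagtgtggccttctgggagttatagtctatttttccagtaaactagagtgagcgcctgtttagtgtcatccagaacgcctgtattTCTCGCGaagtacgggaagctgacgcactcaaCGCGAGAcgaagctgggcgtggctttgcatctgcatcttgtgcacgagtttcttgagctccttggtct
Positions are counted from 1 at the start site, with -1 the base before it, and TCTCGCG can overlap its own reverse complement. In Gnl3 the E-box starts at -25, and in Utp18 one starts at -90 and the other at 4. In Nol9 the TCTCGCG match starts at -17 and its reverse complement at -14, and in Nop14 they start at -50 and -18.

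RNA polymerase I and the factors that place it on the ribosomal DNA come first. Of 9 measured genes 3 fell (33.3%, against 4.62% of all genes) and 0 rose, with a median change of -0.33. For 4 of the 9 every hypoosmotic value lay below every normoosmotic one, which was true of 8.21% of all genes. Taf1d encodes a subunit of selectivity factor 1 (SL1), which recognises the rRNA gene promoter. Its log2 values were 7.73, 7.72, 8.17 and 7.82 in normoosmotic samples and 6.68, 6.60, 6.13 and 7.14 in hypoosmotic ones. Every hypoosmotic value was below every normoosmotic one, with a gap of 0.58 between the groups. The means were 7.86 ± 0.21 and 6.64 ± 0.41 (SD, n = 4 each), a 2.33-fold fall (change -1.22, SE 0.19, adjusted p = 0.00646).

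The catalytic core of the enzyme is formed by its largest and second largest subunits, Polr1a and Polr1b. Polr1b gave 6.86, 6.74, 6.90 and 6.95 in normoosmotic and 6.40, 5.81, 5.78 and 6.01 in hypoosmotic samples, without overlap. It fell 1.82-fold (change -0.86, SE 0.14, adjusted p = 0.00712). Polr1a was tight in normoosmotic samples, at 6.13, 6.17, 6.17 and 6.20, and lower and more scattered in hypoosmotic ones, at 5.76, 5.42, 5.04 and 5.69. It fell 1.61-fold (change -0.69, SE 0.15, adjusted p = 0.0201). Polr1e, a peripheral subunit, read 6.77, 7.14, 6.82 and 6.63 against 6.94, 7.36, 6.04 and 7.14. These groups overlapped, and the 95% interval of its change ran from -0.50 to 0.56.

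Ubtf, the HMG-box protein that coats active rRNA genes, had a change of -0.03 with an interval of -0.29 to 0.23. Polr1c and Polr1d, subunits that RNA polymerase I shares with RNA polymerase III, had changes of -0.33 and -0.28 and did not pass (adjusted p = 0.262 and 0.188). The SL1 subunit genes Taf1a (-0.50, adjusted p = 0.0918) and Taf1c (-0.24, adjusted p = 0.425) did not pass either. Whether Taf1d differed from the other SL1 subunits was not tested.

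In small subunit assembly all 16 measured genes had a negative change, against 46.2% of all genes, with a median of -0.58. Of the 16 genes 8 fell, against 4.62% of all genes, and 0 rose. Nol10, Nop14 and Wdr75 belong to the small subunit processome, the particle that forms on the nascent pre-rRNA around the U3 snoRNP. Nol10 was 6.85, 6.85, 6.88 and 6.85 in normoosmotic samples and 6.12, 5.92, 5.49 and 6.24 in hypoosmotic ones. The normoosmotic values were nearly equal, and each hypoosmotic value was at least 0.61 below them. Nol10 fell 1.89-fold (change -0.92, SE 0.15, adjusted p = 0.00712).

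Nop14 gave 7.15, 7.16, 7.22 and 7.18 against 6.51, 6.31, 6.03 and 6.77, again without overlap, and fell 1.71-fold (change -0.77, SE 0.14, adjusted p = 0.0116). Wdr75, of the subcomplex that joins the transcript early, gave 6.95, 6.91, 7.01 and 6.82 against 6.37, 6.24, 6.19 and 6.60. It fell 1.49-fold (change -0.57, SE 0.11, adjusted p = 0.0140), and its groups were 0.22 apart. Ltv1, which acts late in the maturation of the small subunit, read 5.81, 6.23, 6.11 and 5.76 against 6.08, 5.92, 5.35 and 6.13. Only hypoosmotic replicate 3 lay outside the normoosmotic range, and the interval of the change was -0.50 to 0.28.

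Other processome genes that fell were Heatr1 (-0.78, adjusted p = 0.0287), Wdr43 (-0.64, adjusted p = 0.0225) and Utp18 (-0.52, adjusted p = 0.0283). So did Nop9, which encodes an RNA-binding factor of the pre-rRNA (-0.76, adjusted p = 0.0292), and Bysl, whose product stays with the small subunit precursor until late (-0.58, adjusted p = 0.0199). Tsr1, a late factor related to GTPases, had a change of -0.70 and just missed the threshold (adjusted p = 0.0544). Its normoosmotic values of 7.93 to 8.08 all lay above its hypoosmotic values of 6.68 to 7.80. Pno1 (-0.51), Nol6 (-0.35), Utp15 (-0.63), Utp3 (-0.24), Noc4l (-0.19) and Rrp9 (-0.15) did not pass.

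**Figure D3:**
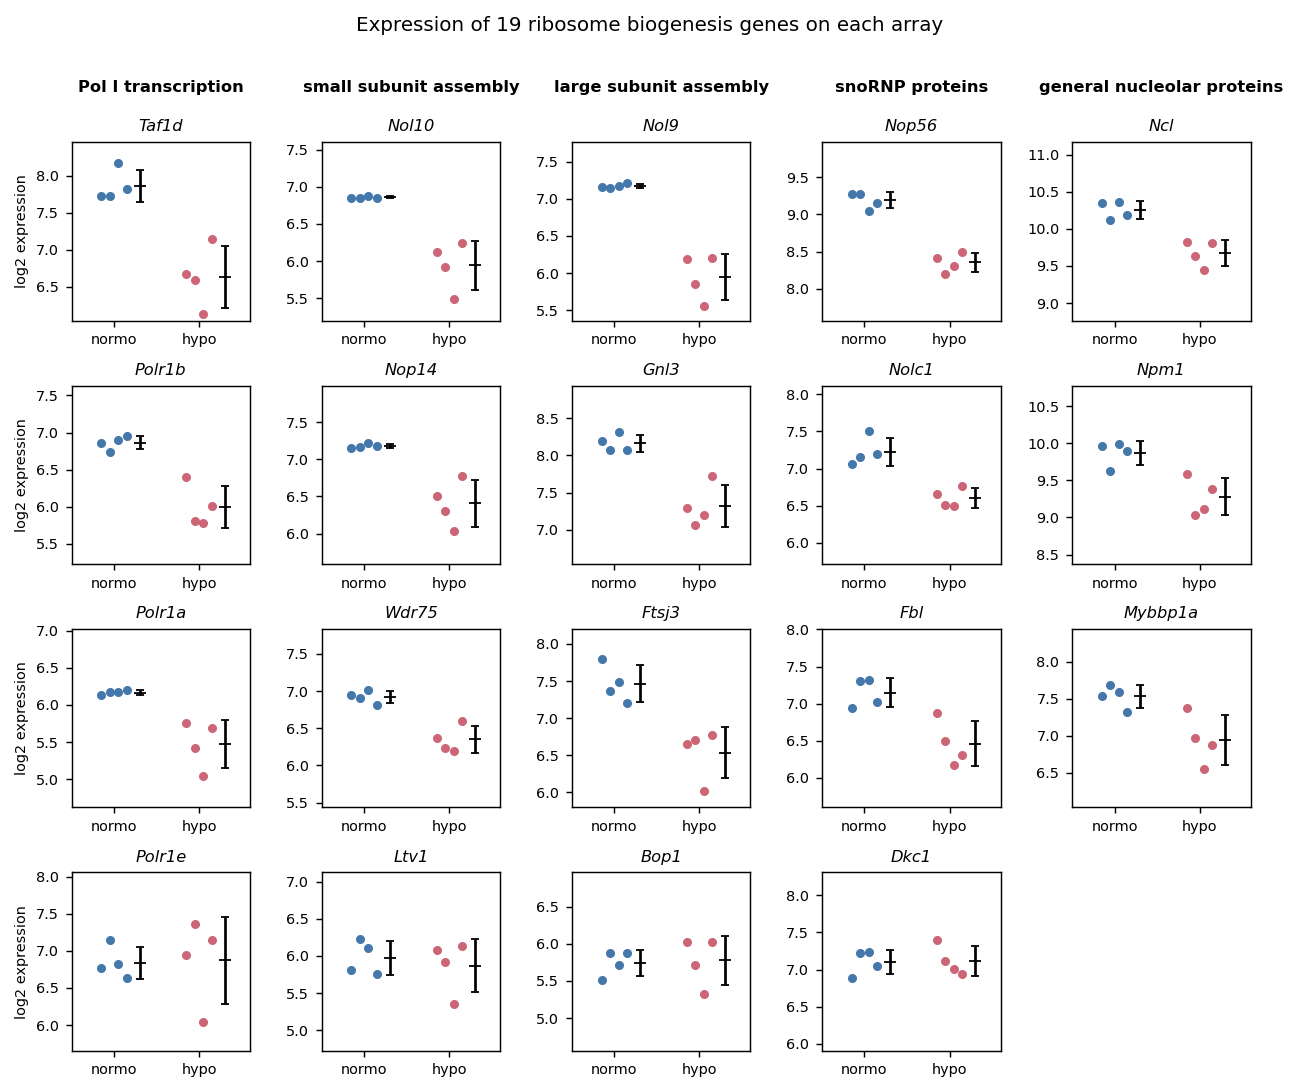
Log2 expression of 19 genes on each array (points, normoosmotic in blue and hypoosmotic in red) with the mean and SD of each group of 4 (black). Columns are the role groups, with the 3 genes of smallest p and, at the bottom, the one of largest p. The column of general nucleolar proteins holds only its 3 genes, and all panels span 2.4 log2 units. The groups overlap for Mybbp1a and for Polr1e, Ltv1, Bop1 and Dkc1 in the bottom row, and for no other gene shown.

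Large subunit assembly held the gene with the smallest p of the set. Of its 14 measured genes 5 fell (35.7%, against 4.62% of all genes) and 0 rose, with a median change of -0.45. Nol9 encodes the polynucleotide 5′-kinase that acts on the spacer between 5.8S and 28S rRNA. It read 7.16, 7.15, 7.17 and 7.21 in normoosmotic and 6.19, 5.85, 5.56 and 6.20 in hypoosmotic samples. Its groups were 0.95 apart, with an SD of 0.03 in the first and 0.31 in the second. It fell 2.33-fold (change -1.22, SE 0.14, adjusted p = 0.00313).

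Gnl3 (nucleostemin), a nucleolar GTPase, gave 8.20, 8.07, 8.31 and 8.07 against 7.29, 7.06, 7.20 and 7.72, without overlap, and fell 1.80-fold (SE of the log2 change 0.14, adjusted p = 0.00785). A further probe set of Gnl3 lay near background, at a level of 2.06, with a change of -0.51 that did not pass. Ftsj3, an rRNA methyltransferase of the large subunit precursor, gave 7.79, 7.36, 7.49 and 7.21 against 6.65, 6.71, 6.02 and 6.77. It fell 1.90-fold (SE of the log2 change 0.18, adjusted p = 0.0132), with its groups 0.44 apart.

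Bop1 and Wdr12 encode partners in the PeBoW complex, which is needed to process the spacer before 28S rRNA. Bop1 was 5.51, 5.88, 5.72 and 5.87 against 6.02, 5.72, 5.33 and 6.03, with overlap and an interval of -0.33 to 0.39. Wdr12 had a change of -0.65 (adjusted p = 0.0622), with all 4 hypoosmotic values below the normoosmotic ones. Noc3l (-0.65, adjusted p = 0.0160) and Ppan (-0.74, adjusted p = 0.0227), factors of the early large subunit precursor, fell. Noc2l (-0.46), Grwd1 (-0.43), Gnl2 (-0.38), Ebna1bp2 (-0.37), Rrp15 (-0.30), Rrs1 (-0.16) and Nop16 (-0.06) did not pass, and neither did the further probe sets of Ebna1bp2 and Nop16.

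The snoRNP proteins are described by the class of guide RNA they bind. Of 8 genes 3 fell (37.5%, against 4.62% of all genes) and 0 rose, with a median change of -0.43. Nop56, Nop58 and Fbl are core proteins of box C/D particles, which guide 2′-O-methylation. Snu13, a further core protein that is counted with the further small subunit factors below, did not pass (change -0.265, adjusted p = 0.231). Nop56 had tight groups, at 9.28, 9.27, 9.05 and 9.16 against 8.42, 8.20, 8.30 and 8.50. Its means were 9.19 ± 0.11 and 8.36 ± 0.13 (SD, n = 4 each), a 1.78-fold fall with an adjusted p of 0.00347. Fbl (fibrillarin), the methyltransferase, gave 6.94, 7.31, 7.32 and 7.02 against 6.87, 6.50, 6.17 and 6.31. Its groups were only 0.07 apart, and it fell 1.61-fold (change -0.69, SE 0.16, adjusted p = 0.0268). Nop58 had a change of -0.43 and did not pass (adjusted p = 0.162). Its interval of -0.79 to -0.06 overlaps that of Nop56, -1.07 to -0.60, and the difference between these partners was not tested.

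Dkc1, Nop10, Nhp2 and Gar1 form the box H/ACA particles, which guide pseudouridylation and also hold telomerase RNA, and 0 of the 4 passed. Dkc1, the pseudouridine synthase, read 6.89, 7.22, 7.24 and 7.05 against 7.40, 7.11, 7.01 and 6.94, with overlap and an interval of -0.27 to 0.30. Nop10 had the highest change of all 50 genes, 0.21 (adjusted p = 0.345). Gar1 (-0.43, adjusted p = 0.0742) and Nhp2 (-0.40, adjusted p = 0.0841) had hypoosmotic values all below the normoosmotic ones. Nolc1, a phosphoprotein that binds both kinds of snoRNP, gave 7.06, 7.15, 7.50 and 7.19 against 6.66, 6.51, 6.49 and 6.77. It fell 1.53-fold (change -0.62, SE 0.12, adjusted p = 0.0137). Whether the box C/D and box H/ACA groups differed was not tested.

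The general nucleolar proteins had similar changes, from -0.59 to -0.58. Ncl (nucleolin) gave 10.35, 10.12, 10.36 and 10.19 against 9.82, 9.64, 9.44 and 9.81 and fell 1.49-fold (SE of the log2 change 0.12, adjusted p = 0.0157). Npm1 (nucleophosmin), a chaperone that gives the nucleolus its granular layer, gave 9.96, 9.63, 9.99 and 9.89 against 9.59, 9.04, 9.12 and 9.38, with 0.04 between the groups. It fell 1.50-fold (SE of the log2 change 0.14, adjusted p = 0.0305). Npm1 had 4 probe sets, whose changes ran from -0.59 to -0.48 and which each passed when all probe sets were tested together. Probes may also read similar copies of Npm1 elsewhere in the genome, which was not tested. Mybbp1a, which binds RNA polymerase I, gave 7.53, 7.69, 7.59 and 7.32 against 7.37, 6.97, 6.55 and 6.88. One hypoosmotic value lay inside the normoosmotic range, and the gene just missed the threshold (change -0.59, SE 0.16, adjusted p = 0.0519).

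Some of these genes carry snoRNAs in their own introns, so that one transcript yields both a protein and a guide RNA. In the RefSeq annotation 8 of the 50 genes had at least 1 snoRNA gene inside their span, against 2.05% of 14447 genes with a position. Taf1d held 8, Nop56 and Nop58 held 5 each, Wdr43, Gnl3 and Ncl held 3 each, and Tsr1 and Ppan held 2 each. Of these 8 host genes 6 fell, with a median change of -0.72, and of the 42 others 15 fell, with a median of -0.45. Over all genes 35 of 296 hosts fell, with a median change of -0.03, and 635 of 14151 other genes fell, with a median of 0.02. Hosts across the genome thus also held a larger share of falls than other genes in this count. These counts describe the sets and were not tested, and the levels of the snoRNAs were not analysed here.

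Calls depended on which arrays were used. With 1 array left out, 2.28% to 4.54% of all genes fell, against 4.62% with all 8. With each array left out in turn, 10 of the 21 genes passed in all 8 fits: Nol9, Taf1d, Nop56, Nol10, Ftsj3, Polr1b, Gnl3, Nop14, Nolc1 and Wdr75. Without normoosmotic replicate 3, 10 genes fell, and Polr1a, Nop9, Wdr43, Utp18, Heatr1, Bysl, Ppan, Noc3l, Fbl, Ncl and Npm1 no longer passed (adjusted p 0.0544 to 0.0914). Without hypoosmotic replicate 2, 13 fell, and Polr1a, Nop9, Wdr43, Heatr1, Bysl, Ppan, Fbl and Npm1 were lost (0.0572 to 0.0836). Without normoosmotic replicate 4, 14 fell, and Polr1a, Wdr43, Utp18, Heatr1, Bysl, Fbl and Npm1 were lost (0.0509 to 0.0748). Omitting normoosmotic replicate 2 lost Nop9, Utp18, Heatr1, Ppan and Fbl (0.0595 to 0.0751), and omitting normoosmotic replicate 1 lost Nop9, Wdr43, Heatr1 and Npm1 (0.0526 to 0.0805). Hypoosmotic replicate 3 was needed for Utp18, Fbl and Npm1 (0.0524 to 0.0621), replicate 1 for Utp18 (0.0722) and replicate 4 for Fbl (0.0562). Among genes that had missed the threshold, Wdr12, Nhp2 and Mybbp1a passed without hypoosmotic replicate 1, Tsr1 without replicate 3, and Taf1a, Utp15, Tsr1, Wdr12 and Grwd1 without replicate 4. Against a minimum fold change of 1.2 the genes that passed were Nol9, Taf1d and Nop56.

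Ribosomal proteins, the building blocks that these factors assemble, did not pass the test. Of 68 cytosolic ribosomal protein genes 0 passed in either direction (limma), against 7.07% of all genes. An unadjusted p under 0.05 was found for 0 of the 68 and for 2999 of the 14511 genes tested. The changes of the 68 ran from -0.19 to 0.15 with a median of -0.02. The smallest p was that of Rpl5, a protein of the large subunit, at 11.20, 11.21, 11.26 and 10.89 against 11.04, 11.16, 10.94 and 10.76. These values overlapped (change -0.17, SE 0.12, adjusted p = 0.530). Rpl34 (0.15) and Rplp2 (0.14) came next. Ribosomal protein genes have many similar copies in the genome, so their probe sets are uncertain as measures of single genes.

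Assembly factors that are not among the 58 genes were counted from separate lists, to be read against the 4.62% of all genes that fell and the 2.45% that rose. Of 30 further small subunit factors 5 fell (16.7%) and 0 rose, with a median change of -0.22, and of 33 further large subunit factors 9 fell (27.3%) and 0 rose, with a median of -0.26. Dimt1, a methyltransferase of 18S rRNA, gave 6.37, 6.52, 6.48 and 6.17 against 5.60, 5.67, 5.09 and 5.63 and fell by 0.89 on the log2 scale (SE 0.14, adjusted p = 0.00712). Riok1, a kinase of late small subunit maturation, fell by 0.66 (adjusted p = 0.00734), and Nat10, the acetyltransferase of 18S rRNA, by 0.69 (adjusted p = 0.0135). These 3 passed without each array. The other falls, Rrp7a (-0.62, adjusted p = 0.0233) and Wdr46 (-0.59, adjusted p = 0.0365), were named after their values were seen and passed in 4 and 3 of the 8 fits, with the highest adjusted p, 0.0727 and 0.0947, without normoosmotic replicate 3. Among large subunit factors Rbm28 (-0.66), Brix1 (-0.64) and Senp3, a SUMO protease of the nucleolus (-0.58), had the smallest p-values, 0.0119 to 0.0139 after adjustment, and passed without each array.

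Of 9 further genes of RNA polymerase I and its regulators 3 fell (33.3%) and 0 rose. They were Polr2h, a subunit common to all nuclear RNA polymerases (-0.50, adjusted p = 0.0232), Baz2a, of a complex that silences rRNA genes (-0.82, adjusted p = 0.0315), and the RNA polymerase I subunit gene Polr1g (-0.61, adjusted p = 0.0389). With 1 array left out they passed in 4, 4 and 2 of 8 fits. Their highest adjusted p was 0.0663 for Polr2h (hypoosmotic replicate 2 left out), 0.0842 for Baz2a (normoosmotic replicate 2) and 0.106 for Polr1g (normoosmotic replicate 3). The further small subunit, large subunit and RNA polymerase I lists together held 72 measured genes. Of these 17 fell (23.6%) and 0 rose, with a median change of -0.24, against 42.0% and -0.51 for the 50 genes.

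RNA polymerase III, which makes 5S rRNA and tRNAs, showed changes in both directions. Of 18 genes 5 fell (27.8%) and 1 rose. Polr3e, one of its subunits, gave 6.25, 6.34, 6.41 and 6.37 against 5.67, 5.38, 5.42 and 5.60 and fell by 0.83 on the log2 scale (SE 0.10, adjusted p = 0.00313). Bdp1, of its initiation factor TFIIIB, fell by 0.94 (SE 0.16, adjusted p = 0.00759). The small subunit gene Polr3k rose, from 5.77, 5.95, 6.01 and 5.70 to 6.80, 6.61, 6.28 and 6.40 (change 0.67, SE 0.13, adjusted p = 0.0143). These 3 passed without each array. The other falls, named after their values were seen, were Polr3f (-0.60), Gtf3c4 (-0.58) and Maf1, a repressor of the enzyme (-0.46). They passed in 7, 2 and 3 of the 8 fits, with the highest adjusted p at 0.0576 (normoosmotic replicate 3 left out), 0.103 (normoosmotic replicate 1) and 0.0751 (normoosmotic replicate 2). Of 12 exosome and rRNA trimming genes 1 fell (8.33%, near the 4.62% of all genes), the nuclease gene Dis3 (-0.55, adjusted p = 0.0482), which passed in 1 of the 8 fits, with the highest adjusted p, 0.118, without normoosmotic replicate 1. Isg20l2 (-0.65, adjusted p = 0.0618) and Mtrex (-0.27, adjusted p = 0.166) did not pass.

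**Figure D4:**
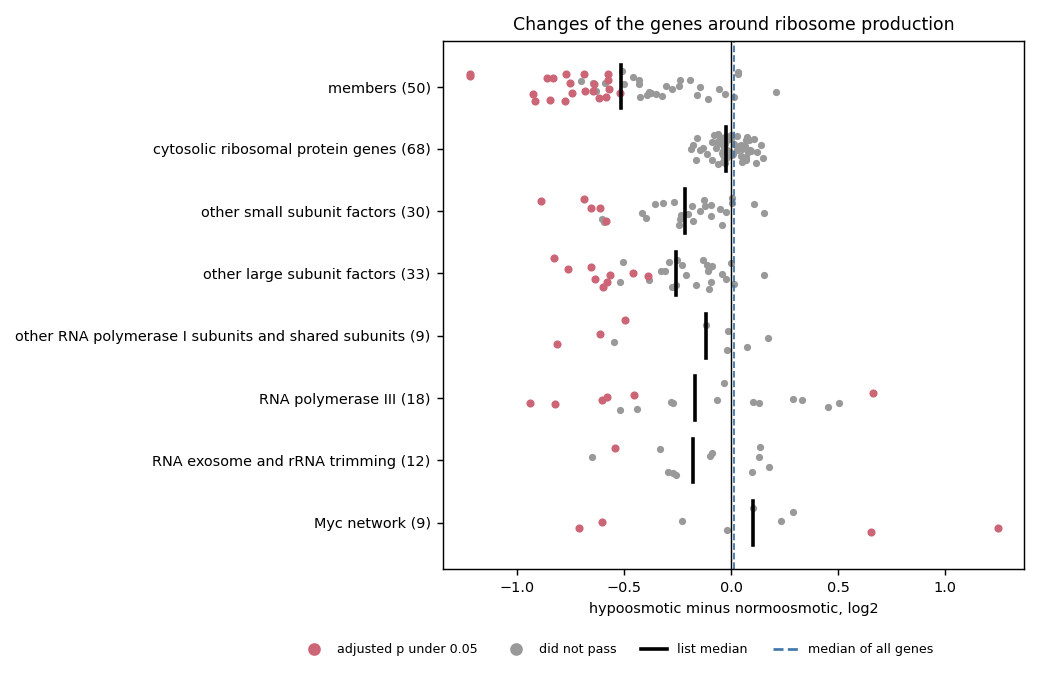
Changes of the genes in each list, hypoosmotic minus normoosmotic on the log2 scale (x axis), with 1 point per gene, red where the adjusted p was under 0.05, a black bar at the list median and a dashed line at the median of all genes. The 50 genes named here as members lie to the left with a median of -0.51, and the 68 ribosomal protein genes cluster between -0.19 and 0.15.

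In the Myc network, which controls transcription of many ribosome biogenesis genes, 2 of 9 genes fell (22.2%) and 2 rose. Myc gave 9.06, 9.43, 9.72 and 9.30 in normoosmotic and 8.64, 8.64, 8.43 and 8.96 in hypoosmotic samples, without overlap (change -0.71, SE 0.16, adjusted p = 0.0220). Mxd1, which pairs with Max and represses genes that Myc activates, rose from 6.79, 7.26, 6.75 and 6.86 to 8.19, 8.82, 7.69 and 7.95, a change of 1.25 (SE 0.22, adjusted p = 0.00857). Mxi1, of the same repressor family, rose by 0.65 (adjusted p = 0.0242). Max, the shared partner, was named after its value was seen and fell by 0.60 (adjusted p = 0.0323). Mxd1 passed without each array, and Myc, Max and Mxi1 passed in 4, 4 and 3 of the 8 fits. Their highest adjusted p was 0.0604 for Myc and 0.0873 for Max, both with normoosmotic replicate 3 left out, and 0.0666 for Mxi1 (normoosmotic replicate 1). With probe sets of a gene averaged, Max and Mxi1 did not pass (0.0668 to 0.0681). The part of these regulators in the levels of the 50 genes was not tested.

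For the genes of these further lists, the arrays on which single calls rested were as follows. Calls were lost without normoosmotic replicate 1 for Wdr46, Polr2h, Gtf3c4, Maf1, Dis3 and Mxi1. Without normoosmotic replicate 2 they were lost for Wdr46, Rrp7a, Polr2h, Baz2a, Polr1g, Gtf3c4, Maf1, Dis3, Myc and Max. Omitting normoosmotic replicate 3 lost Wdr46, Rrp7a, Baz2a, Polr1g, Polr3f, Gtf3c4, Maf1, Dis3, Myc, Mxi1 and Max, and omitting normoosmotic replicate 4 lost Wdr46, Rrp7a, Polr2h, Baz2a, Polr1g, Gtf3c4, Maf1, Dis3, Mxi1 and Max. Among hypoosmotic arrays, replicate 1 was needed for Wdr46, Polr1g, Gtf3c4, Dis3, Myc, Mxi1 and Max. Replicate 2 was needed for Rrp7a, Polr2h, Baz2a, Polr1g, Gtf3c4, Maf1, Dis3, Myc and Mxi1, and replicate 3 for Polr1g and Dis3. Isg20l2 passed without replicate 4 (adjusted p = 0.0290), with array weights (0.0397) and with each array centred on its median (0.0482). Against a minimum fold change of 1.2, 21 of the genes named from these lists no longer passed (adjusted p 0.0576 to 0.706), among them Dimt1, Riok1, Nat10, Bdp1, Polr3k, Mxd1 and Myc, and Polr3e kept its call.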

How the data were processed

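The authors deposited log2 expression values of 27596 probe sets on 8 arrays. The submitters' processing notes name RMA, Transcriptome Analysis Console 4.0 and Affymetrix Expression Console without saying which did what. RMA makes the arrays' distributions alike, so a shift common to most genes cannot be seen. The genome build of the probe design was not given in the sources used here.

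Probe sets were named by the platform annotation of 2016, with symbols updated through RefSeq genes (15279 of 15316 by gene identifier, 8 by accession, 29 kept), and 317 probe sets with several symbols were left out. The highest-mean probe set per gene left 14511 genes. The test was that of limma 3.58.1 (R 4.3.3; lmFit and eBayes, group as the only term), and its p-values, which are two-sided, received Benjamini-Hochberg adjustment with a threshold of 0.05. The script was tested on simulated data, in which 200 of 14511 genes were changed. It recovered 26% of changes of 0.5 and 88% of changes of 1 on the log2 scale, with 3 false calls. The simulated noise was independent between genes and equal in both groups. In the real data the 50 genes spread more in hypoosmotic samples, so these rates may not hold for them. Figures were drawn in Python 3.11.15 with matplotlib 3.10.9.

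The genes and lists were chosen with earlier results of these data known. Per-array values are given for the 3 genes of smallest p and the 1 of largest p in each role group, and for changes of at least 1. Other lists have their 3 smallest p-values named, and Myc. The alternatives tried were a replicate block, variances fitted robustly with a trend on intensity, array weights, quantile normalization, median centring, leaving out the dimmest 30% of genes, averaging probe sets, testing all probe sets, a minimum fold change of 1.2, and leaving out each array.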

Additional observations from a re-analysis of the deposited data

Results flagged for a closer look

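In groups of 4 arrays, a value far from the other 3 was looked for among the 50 genes and their median on each array, by Dixon's test at the 95% level. It marked 3 of 102 groups, and chance marks about 1 in 20. Ftsj3 stood at 6.02 on hypoosmotic replicate 3, with the other 3 arrays at 6.65 to 6.77, and Nop58 stood at 7.88 on the same array, with the others at 8.57 to 8.61. Nol10 stood at 6.88 on normoosmotic replicate 3 with the others all at 6.85, a gap of the size that 2 printed decimals allow.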

How the results depend on the processing

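Of the 50 genes, 21 fell with the settings as reported and 20 to 23 under 8 of the alternatives, with 0 rises under any. Against a minimum fold change of 1.2 the number was 3, and over all genes 60 fell and 23 rose. Leaving out 1 array gave 10 to 25 falls among the 50 genes, and over all genes 331 to 659 falls and 137 to 392 rises. Tsr1 and Mybbp1a passed without the dimmest genes, with centred arrays and with a variance trend (adjusted p 0.0339 to 0.0482), Tsr1 and Grwd1 with array weights, and Mybbp1a after a further quantile normalization. The labels do not say whether equal replicate numbers mark a shared day or batch. Deviations of same-numbered samples correlated at 0.01, 0.26, 0.12 and 0.06, and for 3 of the 4 numbers this was the best match, a hint from the data only, so pairing was not established. With the replicate number as a block 20 of the 50 genes fell, with Nop9 lost (adjusted p = 0.0554), and over all genes 612 fell and 417 rose. Polr1g, of the further lists, was also lost (0.0704). With all probe sets tested together Wdr46, Polr1g, Gtf3c4 and Dis3 were lost (0.0507 to 0.0665). Under the settings that kept all arrays and tested against a change of 0, the calls of the 21 genes held, except that of Nop9 with the block. The median change of the 50 genes lay between -0.56 and -0.42 under every setting. With 4 arrays a group, the intervals of genes that did not pass reached down to -1.17 (Utp15) and up to 0.56 (Polr1e).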
